A study of Mus musculus with 8 samples.

Results

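The genes described here encode heat shock proteins, their J-domain partners and regulators of the unfolded protein response, read in the ventral tegmental area (VTA) of juvenile mice. Members were taken by symbol: every Hspa, Hspb and Hsp90 gene together with Hspd1, Hspe1 and Hsph1, every Dnaja, Dnajb and Dnajc gene with a number, and Atf4, Atf6, Xbp1, Ddit3, Ern1, Eif2ak3, Calr, Canx, Pdia3, Pdia4 and Pdia6. This gave 81 of the 54735 genes in the count table, and 74 of them were among the 16538 genes that passed the filter on low counts. Of the other 7, Dnajb7 and Hspb9 had no count in any library, and Dnajb8, Dnajc22, Hspb2, Hspb3 and Hspb7 were too low to test.

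RNA from bilateral VTA punches of 8 DBA2/J mice was sequenced, with 1 library per mouse. In the social stress (SS) group (n = 4), each pup spent 30 min per day with an adult CD1 male from postnatal day 14 to 21, and the resident male had been gonadectomized. In the control (CTR) group (n = 4), no male was introduced and the litter was not disturbed. The labels give all 8 mice as males of postnatal day 21, while the study's methods place collection on the day after the last exposure. The study assigned whole litters to CTR or SS, and no litter is given for any library, so some mice of a group may be litter mates. CTR mice were not handled, so handling and the encounter with the male cannot be told apart.

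Most proteins need help to reach or keep their shape, and chaperones give it. HSP70 proteins bind exposed hydrophobic stretches in cycles of ATP hydrolysis that J-domain proteins start, HSP90 proteins act later on kinases and receptors, and small heat shock proteins hold unfolded clients without ATP. In the endoplasmic reticulum (ER), sensors in the membrane respond to unfolded proteins: IRE1 (Ern1) splices the Xbp1 mRNA, PERK (Eif2ak3) phosphorylates eIF2alpha and so favours translation of ATF4, and ATF6 is cut and moves to the nucleus. Their targets include BiP (Hspa5), GRP94 (Hsp90b1), calreticulin and CHOP (Ddit3). The splicing of Xbp1, phosphorylation and cleavage leave no trace in counts per gene, so the values below are amounts of mRNA and not states of the pathway.

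The ER stress element, through which ATF6 and XBP1 act, is shown first, because every member that carried it works in the ER. Its letters, CCAAT and CCACG with 9 bases between them, were searched on both strands in the 250 bases before each RefSeq start site (GRCm38.p6, the same build as mm10). It was present for 6 of the 67 members with such a window (8.96%), compared with 0.13% of 27025 genes with a window. The sites are printed with 5 flanking bases on each side, 5′ to 3′ on the strand named, with the fixed letters of the element in capitals.
Hspa5, chr2:34772020-34772048, plus strand: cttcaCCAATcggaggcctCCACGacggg
Hsp90b1, chr10:86705633-86705661, minus strand: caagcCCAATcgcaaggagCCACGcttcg
Hsp90b1, chr10:86705528-86705556, plus strand: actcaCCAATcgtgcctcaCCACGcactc
Calr, chr8:84847070-84847098, plus strand: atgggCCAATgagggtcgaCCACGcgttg
Canx, chr11:50325795-50325823, minus strand: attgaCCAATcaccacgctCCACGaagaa
Pdia6, chr12:17266486-17266514, plus strand: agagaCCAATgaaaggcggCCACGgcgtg
Dnajc3, chr14:118937822-118937850, plus strand: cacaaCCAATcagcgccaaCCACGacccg

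Hsp90b1 carried the element in both orientations. Of the 7 ER chaperones and disulfide isomerases with a window, 5 carried it, as did 1 of the 9 ER J-proteins (Dnajc3) and none of the other members with a window. The CCAAT box alone was common, at 44.8% of members and 37.5% of genes, and it lies inside the longer element. Dnajc3 is the member of these 6 with the largest difference between the groups, so its whole window is shown (chr14:118937682-118937931, plus strand, GRCm38.p6, free of annotated exons), with the element in capitals.
Dnajc3: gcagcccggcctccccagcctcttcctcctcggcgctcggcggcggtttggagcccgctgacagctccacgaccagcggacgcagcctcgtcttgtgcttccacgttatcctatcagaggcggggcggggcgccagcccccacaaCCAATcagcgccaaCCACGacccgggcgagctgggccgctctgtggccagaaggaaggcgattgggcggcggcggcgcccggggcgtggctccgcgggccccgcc

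The heat shock element, to which HSF1 binds, was searched as GAA, TTC and GAA with 2 bases after each of the first 2 parts, on both strands. It was found for 3 members (4.48%), Hspd1, Hspe1 and Dnajb6, compared with 0.514% of genes. Hspa1a, Hspa1b, Dnajb1 and Hsph1 had windows without a match to these exact letters, and looser forms of the element were not searched. Hspd1 and Hspe1 are transcribed in opposite directions from 1 shared stretch, and the same bases serve both windows. The element read in both orientations there, and the copies overlap.
Hspd1 and Hspe1, chr1:55088059-55088081, plus strand: ttctaGAAccTTCcgGAAggccc
Hspd1 and Hspe1, chr1:55088054-55088076, minus strand: ttccgGAAggTTCtaGAAcggac
Dnajb6, chr5:29735847-29735869, plus strand: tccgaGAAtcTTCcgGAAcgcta

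Hspa8, Hsp90ab1 and Hsp90aa1 were among the members with no window, so they were not searched. The shorter ER element (ATTGG and CCACG with 1 base between them) and the C/EBP-ATF element TGATGCAA were in no member's window. A match is a description of letters, not evidence that a factor binds in this tissue.

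Some features of the libraries bear on every value below. Library totals ranged from 20036086 to 47319997 counts. The TMM factors, which scale each library so that the typical gene shows no difference, were 0.967 to 0.994 in CTR and 1.01 to 1.03 in SS and did not overlap, so on library totals alone the median log2 fold change of all genes was 0.06 instead of 0.0037. CTR-1 and CTR-2 were the least rich, with 434 and 354 of 1989 genes of 1 to 3 CPM (counts scaled to 1e6 per normalized library) at no count, compared with 1 to 94 in the other 6 libraries. CTR-5 and SS-5 carried Xist transcripts (14997 and 6551 counts) and 3 and 0 Y-linked counts against their label as male, where the other 6 libraries had 0 to 3 counts of Xist and 2293 to 7892 Y-linked counts.

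The first question was whether chaperone and unfolded protein response mRNAs as a whole differed in the VTA after SS. In edgeR's quasi-likelihood test, 0 of the 74 tested members passed an adjusted p of 0.05 (Benjamini-Hochberg over all genes tested), where 0.0847% of all genes did. The smallest adjusted p of a member was 0.71. DESeq2 also called 0 members, where it called 75 of the 16538 genes tested. At an unadjusted p under 0.05, 8 members were lower in SS and 0 were higher. The corresponding shares of all tested genes were 3.7% lower and 2.85% higher, and that of members was 10.8% in total compared with 6.55%. Of the members, 46 had lower and 28 higher values, that is 62.2% lower compared with 49.4% of all genes, and their median log2 fold change was -0.07 compared with 0.0037. On library totals alone the member median was -0.01 and that of all genes 0.06, so the gap between them remained and the member median came close to 0. The median of the ER J-proteins, of cytosolic HSP70 and HSP110 and of the mitochondrial members then changed sign, from -0.02, -0.03 and -0.02 to 0.04, 0.03 and 0.04. In bulk tissue, fewer cells of a type and less RNA per cell cannot be told apart.

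The 8 members were Hspa8, Dnajc3, Xbp1, Hsp90ab1, Hsph1, Ddit3, Dnajc2 and Atf4. In the first 5, the highest SS value was under the lowest CTR value, and no member showed the reverse. Groups without overlap were thus found for 6.76% of members and 4.67% of all genes (2.21% lower and 2.47% higher). On library totals alone, 4 members had no overlap, with Dnajc3, Hsph1 and Xbp1 lower in SS and Hsp90b1 higher. Some of the members are abundant, and abundant genes leaned the same way. Of the 2238 genes with at least 100 CPM, 57.2% had lower values in SS and 8.62% were lower at an unadjusted p under 0.05, compared with 68% and 16% (4) of the 25 members at that level. The number of members under 0.05 depended on single libraries. It was 14 without CTR-5 (12 lower and 2 higher), or 18.4% compared with 13.4% of all genes in the same fit. It was 3 without CTR-2 (3.95% compared with 5.68%), 3 without SS-4 (4.05% and 3.53%), 4 without SS-5 (5.33% and 4.65%) and 5 without SS-2 or SS-3 (6.58% and 4.47%, and 6.76% and 3.76%). On library totals alone it was 4 (5.41% compared with 6.81%), with Dnajc3, Xbp1 and Hspa8 lower and Dnajc10 higher. The share of members was thus under that of all genes without CTR-2 and on library totals. Over the 6 libraries with Y-linked transcripts, that is without CTR-5 and SS-5, it was 11 (9 lower and 2 higher), or 14.9% compared with 10.6% of all genes, and all 8 members named above remained lower, from -0.72 for Ddit3 to -0.20 for Hsph1, which alone of them had an unadjusted p over 0.05 (0.063).

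**Figure D1:**
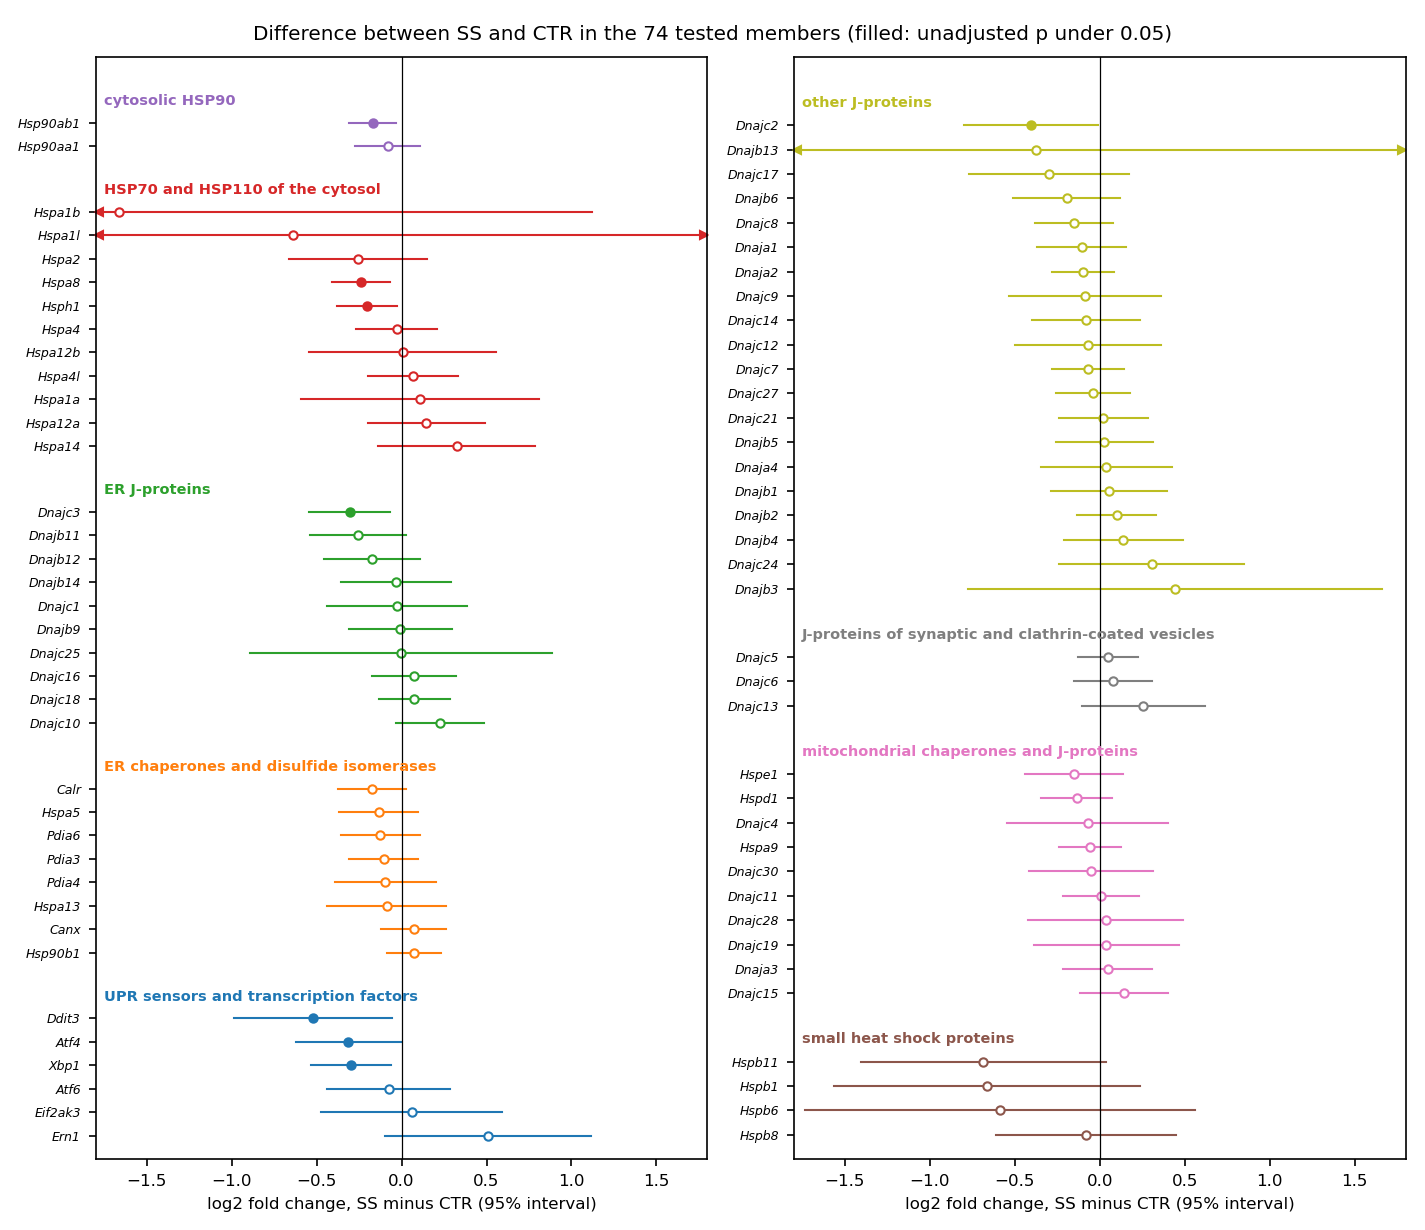
Log2 fold change of each of the 74 tested members (SS minus CTR, horizontal axis) with its 95% interval, ordered by role; filled points have an unadjusted p under 0.05, and arrows mark intervals that run past the axis (Hspa1b, Hspa1l and Dnajb13). The 8 filled points all lie below 0, and no member has an adjusted p under 0.05.

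Markers of cell types also differed between the groups. The summed level of 10 dopamine neuron markers was 1142 to 2422 CPM in the CTR libraries and 357 to 489 CPM in the SS libraries, with 9 of the 10 lower and 6 called. The most abundant of the 10 over all 8 libraries, Ret, was at 354 ± 127 CPM in the CTR libraries and 143 ± 18.7 CPM in the SS libraries (SD, n = 4 each). It was not among those called (adjusted p = 0.054 in edgeR). Slc6a3, which was called, was more abundant in the CTR libraries, at 448 ± 186 CPM, and was at 6.19 ± 4.13 CPM in the SS libraries. The summed level of 8 markers of hypothalamic and mammillary neurons was 21.3 to 65.9 CPM in the CTR libraries and 73.9 to 100.3 CPM in the SS libraries, led by Pmch, and all 8 had higher values in SS. Immediate early genes had 12 of 13 tested members higher in SS, at 236 to 471 CPM in the CTR libraries and 383 to 454 CPM in the SS libraries in sum. All 8 oligodendrocyte and all 8 microglia markers had slightly lower values in SS, with medians of -0.06 and -0.17 on the log2 scale. Their summed levels overlapped between the groups, as did those of astrocytes, endothelial cells and ependymal cells, where Ccdc153, Tmem212 and Dynlrb2 were below the filter. The most abundant gene of the oligodendrocyte, astrocyte, endothelial and ependymal lists was at -0.14 (Mbp), 0.13 (Slc1a3), -0.04 (Flt1) and 0.18 (Foxj1), and that of the immediate early genes at 0.54 (Egr1). Slc1a3 and Foxj1 went against most of their lists: 4 of 6 astrocyte markers had lower values in SS with a median of -0.15 (Gfap at -0.75), and 2 of 3 tested ependymal markers with a median of -0.41, while 3 of 6 endothelial markers were lower with a median of 0.04. The part of these shifts in the chaperone values was not tested.

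The members covered a wide range of levels. Per kilobase of exon, the most abundant was Hsp90ab1, the constitutive cytosolic HSP90, at 567 CPM per kb. It was followed by Calr (181), Hsp90aa1 (174), Hspa8 (162), Canx (133), Hsp90b1 (109.9), Hspa5 (89.0) and Pdia3 (84.9 CPM per kb). The unfolded protein response sensors were far lower, with Eif2ak3 at 5.00, Atf6 at 4.93 and Ern1 at 1.32 CPM per kb. The stress-inducible HSP70 genes Hspa1a and Hspa1b stood at 1.49 and 0.924 CPM per kb, among the lowest 7 of the 74 members. Some 75-base words (the length of a read) also occur in other genes, so reads may have been dropped or assigned elsewhere. The share was 42.8% for Hsp90aa1, 33% for Hspa8, 61.7% for Hspa1a and 55.8% for Hspa1b, so their places in this order are uncertain. Summed over all 81 genes, members took 1.08% ± 0.034 of the raw counts in CTR and 1.07% ± 0.022 in SS (SD, n = 4 each). In CPM of the normalized libraries, the sum was 11010 ± 349 in CTR and 10462 ± 285 in SS. The groups overlapped on both scales.

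**Figure D2:**
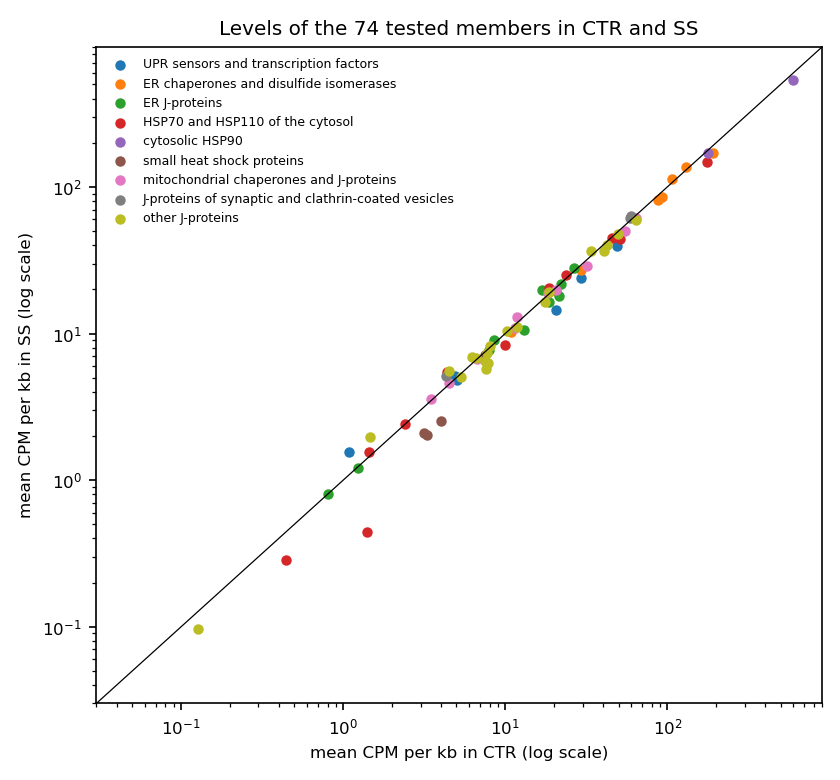
Mean level of each tested member in CTR (horizontal axis) and SS (vertical axis) in CPM per kb of exon on log scales, coloured by role; the diagonal marks equal levels. Most points lie on or just under the diagonal from 0.111 to 567 CPM per kb, and the widest departure is the low gene Hspa1b.

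Among the sensors and transcription factors of the unfolded protein response, 4 of the 6 genes had lower values in SS, the factors Xbp1, Atf4 and Ddit3 and the sensor Atf6, while the sensors Ern1 and Eif2ak3 had higher values. Xbp1 (chr11:5520659-5525893, GRCm38, as are the positions of genes below), whose spliced mRNA encodes the factor of the IRE1 arm, was at 105, 101, 87.1 and 87.0 CPM in the CTR libraries and 73.4, 72.7, 83.8 and 79.2 CPM in the SS libraries. The groups did not overlap. Its log2 fold change was -0.30 (SE 0.11, unadjusted p = 0.017, adjusted p = 0.75), and the exact two-sided permutation test over the 70 assignments gave p = 0.029, the smallest it can give.

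Atf4 (chr15:80255184-80257541), the factor of the PERK arm and of the integrated stress response, was at 139, 131, 100.3 and 90.9 CPM in the CTR libraries and 99.3, 82.0, 92.0 and 98.1 CPM in the SS libraries. CTR-1 and CTR-2 stood above all other libraries, and CTR-3 and CTR-5 lay within or next to the SS range. Its log2 fold change was -0.31 (SE 0.14, unadjusted p = 0.049, adjusted p = 0.75). Ddit3 (chr10:127290774-127296288), which encodes the pro-apoptotic factor CHOP and is a target of ATF4, showed the same arrangement, with 43.6, 45.4, 29.1 and 23.5 CPM in the CTR libraries and 20.3, 27.7, 23.9 and 26.6 CPM in the SS libraries. Its log2 fold change was -0.52 (SE 0.21, unadjusted p = 0.031, adjusted p = 0.75). Without CTR-1 and CTR-2, the libraries with most undetected genes, the log2 fold changes were -0.04 for Atf4 and -0.09 for Ddit3, while that of Xbp1 was -0.17 with an unadjusted p of 0.12. Ddit3 overlaps the genes Mars and Gm4189 on the other strand, and whether counting used strand is not given in the sources used here, so their reads cannot be told apart.

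Ern1 had the highest log2 fold change of the 74 members, 0.51 (SE 0.28, unadjusted p = 0.091, adjusted p = 0.76). It was at 7.65, 4.89, 12.1 and 10.98 CPM in the CTR libraries and 13.4, 12.2, 10.5 and 14.7 CPM in the SS libraries, so the low values were again those of CTR-1 and CTR-2, and its direction was opposite to that of Xbp1, the mRNA its protein splices. Eif2ak3 was at 14.8, 36.2, 34.1 and 32.9 CPM in the CTR libraries and 35.5, 33.4, 26.4 and 27.7 CPM in the SS libraries, with CTR-1 far below the rest. Its log2 fold change was 0.06 with a 95% interval from -0.47 to 0.59, and -0.16 without CTR-1. Atf6 was at 37.9, 54.1, 37.1 and 57.8 CPM in the CTR libraries and within that range in all 4 SS libraries, with a log2 fold change of -0.08 and a 95% interval from -0.44 to 0.29. Summed over the 6 genes, the level was 299.9 to 372 CPM in the CTR libraries and 277 to 289 CPM in the SS libraries, without overlap, and Atf4 and Xbp1 are the 2 most abundant terms of this sum. On library totals alone, the groups overlapped in this sum.

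**Figure D3:**
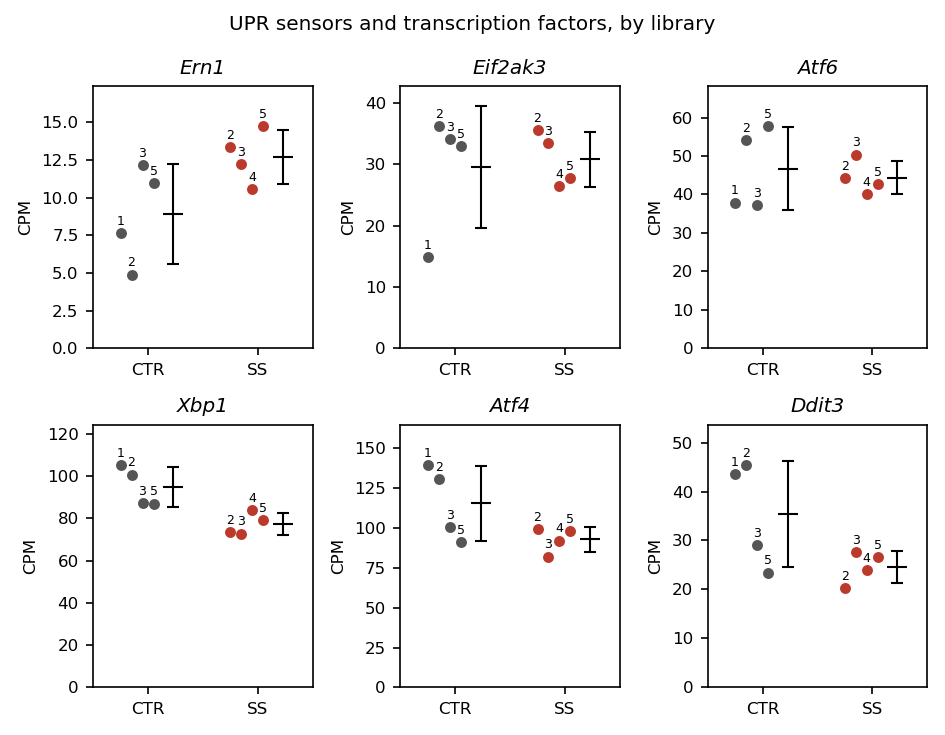
Level of the 6 unfolded protein response sensors and transcription factors in each library (CPM, vertical axis; CTR grey, SS red; numbers are replicate labels), with bars at the mean ± SD of 4 libraries. CTR-1 and CTR-2 are the 2 highest CTR libraries for Xbp1, Atf4 and Ddit3 and the 2 lowest for Ern1.

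The chaperones of the ER lumen, which the unfolded protein response induces, had values close to each other in the 2 groups. None of the 8 ER chaperones and disulfide isomerases had an unadjusted p under 0.05, and their log2 fold changes ran from -0.17 to 0.07 with a median of -0.10. Hspa5, the HSP70 of the ER known as BiP and the standard readout of ER stress, was at 392, 482, 362 and 339.9 CPM in the CTR libraries and 365, 353, 343 and 375 CPM in the SS libraries. The SS values lay inside the CTR range, and the log2 fold change was -0.13 with a 95% interval from -0.37 to 0.10. Hspa5 turned to 0.03 without CTR-1 and CTR-2. Hsp90b1, the ER member of the HSP90 family, was at 431, 423, 438 and 436 CPM in the CTR libraries and 463, 462, 469.7 and 423 CPM in the SS libraries. SS-5 lay among the CTR libraries and the other 3 above them, with a log2 fold change of 0.07 (95% interval -0.08 to 0.23).

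Calreticulin and calnexin, the lectins that hold glycoproteins while they fold, went in opposite directions. Calr was at 623, 569, 548 and 473 CPM in the CTR libraries and 504, 503, 498 and 458 CPM in the SS libraries, with a log2 fold change of -0.17 (SE 0.091, unadjusted p = 0.083). Canx had a log2 fold change of 0.07 (95% interval -0.12 to 0.26). The disulfide isomerases Pdia3, Pdia4 and Pdia6 were at -0.10, -0.10 and -0.12, and Hspa13, an HSP70 found with microsomes, at -0.09, all with overlapping groups. The 95% intervals of these 8 genes reached no lower than -0.44 and no higher than 0.26 on the log2 scale.

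Among the 10 ER J-proteins, Dnajc3 stood apart. Dnajc3 (p58IPK, chr14:118937976-118981697) is a co-chaperone of BiP and has been described as an inhibitor of PERK. It was at 70.4, 71.7, 63.2 and 62.4 CPM in the CTR libraries and 53.7, 60.0, 51.3 and 51.3 CPM in the SS libraries. The groups did not overlap, and the log2 fold change was -0.31 (SE 0.11, unadjusted p = 0.017, adjusted p = 0.75, exact permutation p = 0.029). It stayed under an unadjusted p of 0.05 in 7 of the 8 fits that left out 1 library. The same tally was 6 for Xbp1, 5 for Hsp90ab1 and for Hsph1, 4 for Ddit3, 3 for Dnajc2 and 2 for Atf4. Without CTR-1 and CTR-2, Dnajc3 was at -0.21 (unadjusted p = 0.080). The other ER J-proteins were not uniform. Dnajb11, a further BiP co-chaperone, was at -0.26 (unadjusted p = 0.071), Dnajb9 (ERdj4), an IRE1-XBP1 target, at -0.01 with a 95% interval from -0.31 to 0.29, and Dnajc10, a disulfide reductase that helps degrade misfolded proteins, at 0.23 (unadjusted p = 0.080). Dnajc18, the most abundant of them per kilobase, was at 0.08. The median of the 10 was -0.02. Of the 6 members with an ER stress element, Dnajc3, Calr, Hspa5 and Pdia6 had values below 0 and Hsp90b1 and Canx above 0.

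In the cytosol, the lowest unadjusted p-values were those of 3 abundant genes of the HSP70, HSP110 and HSP90 families, while the log2 fold change was lower in scarcer members described below. Hspa8 (chr9:40800984-40810087) encodes HSC70, the constitutive HSP70 that uncoats clathrin vesicles and serves chaperone-mediated autophagy. It was at 819, 769, 757 and 672 CPM in the CTR libraries and 656, 612, 629 and 662 CPM in the SS libraries. The lowest CTR library, CTR-5, was just above the highest SS library, SS-5. The log2 fold change was -0.24 (SE 0.078, unadjusted p = 0.011, adjusted p = 0.71, exact permutation p = 0.029), the smallest p of all members. It had an unadjusted p under 0.05 in 8 of the 8 fits without 1 library, between 0.0012 and 0.042. Of its 75-base words, 33% also occur in other genes, so some of its reads may have been dropped or assigned elsewhere.

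Hsp90ab1 (chr17:45567775-45573271) was at 1774, 1874, 1842 and 1710.3 CPM in the CTR libraries and 1611, 1582, 1511 and 1693 CPM in the SS libraries. The groups touched without overlap, and the log2 fold change was -0.17 (SE 0.064, unadjusted p = 0.021, adjusted p = 0.75). Its inducible counterpart Hsp90aa1 was at 629, 809, 711 and 668 CPM in the CTR libraries and 711, 667, 636 and 646 CPM in the SS libraries, with a log2 fold change of -0.08 (95% interval -0.28 to 0.11). Summed, the 2 cytosolic HSP90 genes were at 2378 to 2683 CPM in the CTR libraries and 2147 to 2339 CPM in the SS libraries. On library totals alone, the groups overlapped in this sum. Hsph1 (chr5:149614287-149636376) encodes HSP110, the exchange factor that resets HSC70 and that joins it in dissolving aggregates. It was at 360.4, 409, 348 and 362 CPM in the CTR libraries and 333, 335, 308 and 309.7 CPM in the SS libraries, without overlap, with a log2 fold change of -0.20 (SE 0.082, unadjusted p = 0.029, adjusted p = 0.75). Without CTR-1 and CTR-2, Hspa8 was at -0.16 (unadjusted p = 0.0498), Hsp90ab1 at -0.15 (0.034) and Hsph1 at -0.14 (0.087), so most of their difference was present without these libraries. Scaled by library totals alone, Hspa8 kept an unadjusted p under 0.05 (0.033), and Hsp90ab1 and Hsph1 did not (0.097 and 0.090). The groups of Hspa8 and of Hsp90ab1 overlapped on that scale, and also with upper-quartile normalization.

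The remaining genes of this kind did not follow them. Hspa4 and Hspa4l, paralogues of Hsph1, were at -0.03 and 0.07, Hspa2 at -0.26 (95% interval -0.66 to 0.15) and Hspa12a at 0.15. Hspa14, the partner of Dnajc2 on ribosomes, was at 0.33, with CTR-2 at 10.5 CPM and the other 7 libraries at 18.9 to 24.2 CPM. The HSF1 targets that rise most in acute heat or proteotoxic shock were low in both groups. Hspa1a was at 3.10, 5.25, 4.02 and 4.66 CPM in the CTR libraries and 4.90, 3.96, 4.56 and 4.97 CPM in the SS libraries, with a log2 fold change of 0.11 (95% interval -0.59 to 0.81). Hspa1b was at 0, 11.2, 2.07 and 2.50 CPM in the CTR libraries and 1.27, 1.39, 0 and 2.31 CPM in the SS libraries. Its log2 fold change of -1.66 (SE 1.28) rests on CTR-2 alone and was -0.30 without it. A count of 0 allows up to 0.155 CPM in CTR-1 and 0.113 CPM in SS-4 (3 counts, counting error only). Hspa1a and Hspa1b share 61.7% and 55.8% of their 75-base words with other genes, chiefly each other, so their separate counts are uncertain. Dnajb1, the J-protein that HSF1 induces with them, was at 0.05 (95% interval -0.29 to 0.40).

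**Figure D4:**
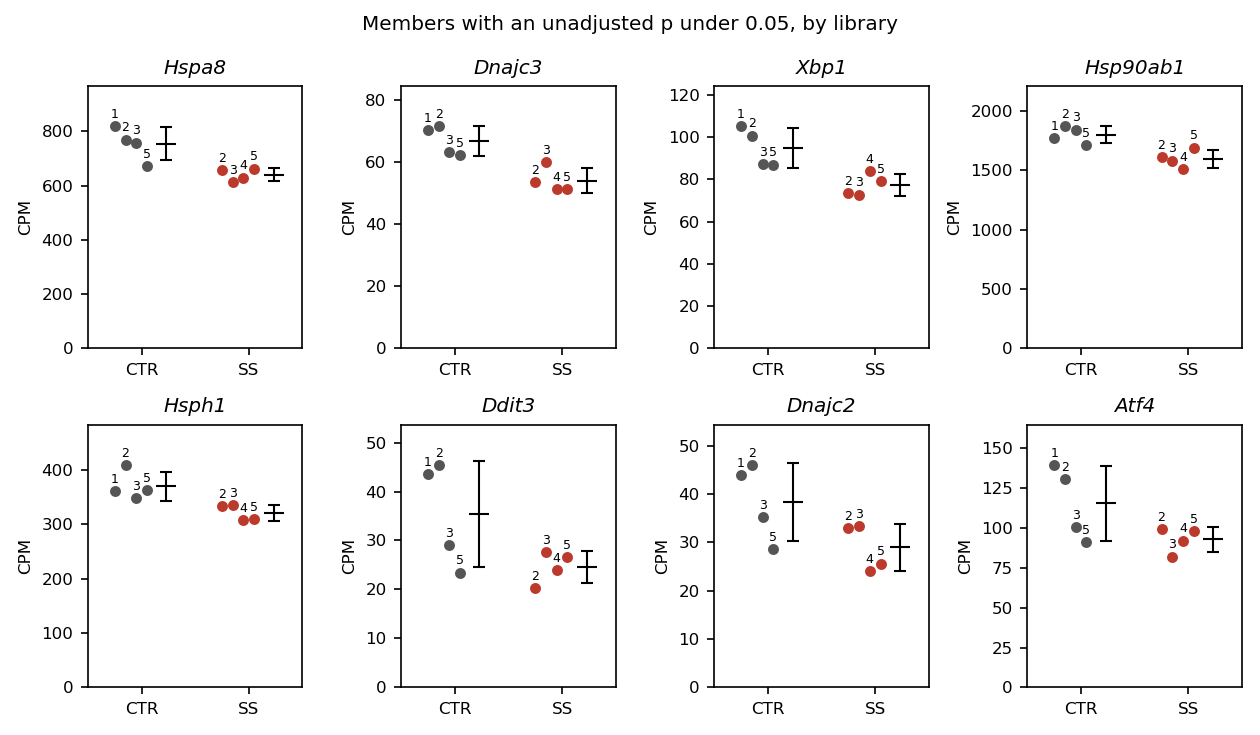
Level of the 8 members with an unadjusted p under 0.05 in each library (CPM, vertical axis from 0; CTR grey, SS red; numbers are replicate labels), with bars at the mean ± SD of 4 libraries. The groups do not overlap for Hspa8, Dnajc3, Xbp1, Hsp90ab1 and Hsph1, and CTR-5 lies within the SS range for Ddit3, Dnajc2 and Atf4.

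Small heat shock proteins were scarce in this tissue. Of 8 genes, 4 were tested, and all 4 had lower values in SS, none with an unadjusted p under 0.05. Hspb1 (HSP25), which binds unfolded proteins and actin, was at 2.84, 4.93, 5.92 and 2.93 CPM in the CTR libraries and 2.13, 2.53, 2.98 and 2.85 CPM in the SS libraries, with a log2 fold change of -0.66 (95% interval -1.56 to 0.24). It shares 46.4% of its 75-base words with other genes. Hspb11 was at 5.01, 9.45, 7.13 and 5.48 CPM in the CTR libraries and 5.45, 3.82, 2.90 and 4.66 CPM in the SS libraries, with a log2 fold change of -0.68 (unadjusted p = 0.061, and 0.041 in DESeq2). Despite its symbol, its product is a subunit of the intraflagellar transport machinery of cilia. Hspb8, the partner of BAG3 in selective autophagy and the most abundant of the 4 per kilobase, was at -0.08. Hspb6 was at -0.59 with a 95% interval from -1.73 to 0.56, and its CTR values ran from 1.40 to 13.1 CPM.

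Mitochondrial chaperones were close to equal. Hspa9 (mortalin), which pulls proteins through the inner membrane, had a log2 fold change of -0.06 (95% interval -0.24 to 0.12). Hspd1 and Hspe1 encode the 2 parts of the matrix folding chamber and share the stretch printed above. They were at -0.13 and -0.15, and their 5′ ends overlap on opposite strands. All 10 mitochondrial members lay between -0.15 and 0.14, with a median of -0.02, and 0 had an unadjusted p under 0.05. Dnajc15 was the highest of them at 0.14.

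The J-proteins of vesicles, which recruit HSC70 to synaptic and clathrin-coated membranes, were the group in which no member had a lower value in SS. Dnajc5 (cysteine string protein), which keeps SNAP25 competent for exocytosis, was at 383, 398, 423 and 439 CPM in the CTR libraries and 452, 439.9, 413 and 397 CPM in the SS libraries, with a log2 fold change of 0.05 (95% interval -0.13 to 0.23). Dnajc6 (auxilin), the neuronal uncoating factor, was at 280.4, 360.0, 361 and 406 CPM in the CTR libraries and 363, 377, 379 and 366 CPM in the SS libraries, with 0.08 (95% interval -0.15 to 0.31). Dnajc13, an endosomal J-protein, was at 0.26 (95% interval -0.10 to 0.62), and without CTR-5 at 0.42 with an unadjusted p of 0.014. Without CTR-1 and CTR-2, Dnajc5 and Dnajc6 were at -0.02 and -0.05. Their partner Hspa8 had the opposite sign with all libraries.

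Of the other 23 J-proteins, 20 were tested, with 12 lower and 8 higher in value and a median of -0.07. Dnajc2 (MPP11 or zuotin-related factor, chr5:21757267-21785251), which sits on ribosomes and helps nascent chains fold, was the 1 member with an unadjusted p under 0.05. It was at 44.0, 46.0, 35.2 and 28.6 CPM in the CTR libraries and 33.0, 33.4, 24.1 and 25.6 CPM in the SS libraries. The groups overlapped, and the log2 fold change was -0.40 (SE 0.18, unadjusted p = 0.047, adjusted p = 0.75). It was -0.13 without CTR-1 and CTR-2. Dnaja2, a cytosolic partner of HSC70 and the most abundant of this group per kilobase, was at -0.10 (95% interval -0.28 to 0.08). Dnajb3 had the highest value, 0.44, at 1.03 to 2.56 CPM.

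**Figure D5:**
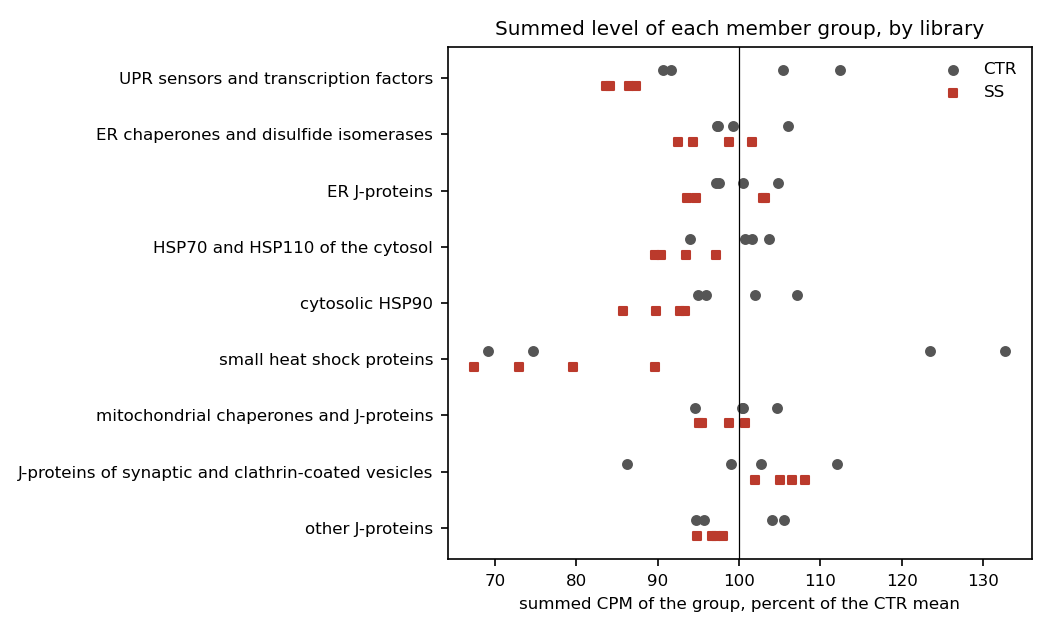
Summed CPM of each member group in each library, as a percent of that group's CTR mean (CTR circles, SS squares; the vertical line marks 100). The sums of unfolded protein response sensors and factors and of cytosolic HSP90 do not overlap between the groups, and the sums of the other 7 groups do. On library totals without TMM (not drawn), the former 2 sums overlap as well.

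The wider pathway was read in 113 further genes in 4 lists. None had an adjusted p under 0.05. At an unadjusted p under 0.05, 9 were lower and 1 was higher in SS, 8.85% compared with 6.55% of all genes, and the list median was -0.05. The CCT chamber and its feeder prefoldin, which fold actin and tubulin, had lower values in 13 of 14 genes, with a median of -0.15 (12 of 14 and -0.10 on library totals alone). Pfdn2 was at -0.34 and Cct7 at -0.22, both under an unadjusted p of 0.05, and the 4 SS values of Cct5 lay below its 4 CTR values. Over the 113 genes, 3.54% showed no overlap between the groups, compared with 4.67% of all genes. These were Cct5 and Hikeshi, lower in SS, and Hyou1 and Grpel2, higher. Of the 42 genes of ER folding and degradation, 21 were lower and 21 higher in value. On library totals alone, 18 were lower and 24 higher, and their median went from -0.01 to 0.05. The medians of the integrated stress response and co-chaperone lists then went from -0.04 to 0.02 and from -0.06 to -0.0019. Ppib, an ER prolyl isomerase, was at -0.34 (unadjusted p = 0.016), Manf, a neurotrophic factor retained in the ER, at -0.33 (0.033), Selenos, of the retrotranslocation complex, at -0.50 (0.030), and Sdf2l1, a BiP partner, at -0.67 (0.035). Without CTR-1, Selenos was at -0.27 and Pfdn2 at -0.20, and without CTR-1 and CTR-2 Pfdn2 was at -0.09 and Cct7 at -0.12.

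Hyou1, the ER homologue of HSP110 and an exchange factor for BiP, was the 1 gene of these lists with a higher value under 0.05. It was at 133, 161, 183 and 173 CPM in the CTR libraries and 184, 194, 192 and 197 CPM in the SS libraries, without overlap, with a log2 fold change of 0.24 (SE 0.10, unadjusted p = 0.044, adjusted p = 0.75). It was 0.15 without CTR-1. Its cytosolic counterpart Hsph1 had the opposite sign. Herpud1, a strong target of the unfolded protein response, was at -0.23 (95% interval -0.53 to 0.06). In the integrated stress response list of 25 genes, Ppp1r15a (GADD34), which restores translation, was at 25.2, 30.1, 18.7 and 13.6 CPM in the CTR libraries and 14.8, 14.4, 13.1 and 17.1 CPM in the SS libraries. Its log2 fold change was -0.56 (unadjusted p = 0.034), and CTR-1 and CTR-2 were again the highest libraries, as they were for Atf4 and Ddit3. It was -0.36 without CTR-2 and -0.11 without both. Psat1, an enzyme of serine synthesis under ATF4, was at -0.34 (unadjusted p = 0.019), and Trib3 was near the limit of detection. Among 32 co-chaperones and heat shock factors, Hsf1 itself was at 0.21 (95% interval -0.09 to 0.51), Bag3 at 0.35 (95% interval -0.16 to 0.87) and Hsbp1, which binds HSF1, at -0.29 (unadjusted p = 0.040), and at -0.15 without CTR-1.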

How the data were processed

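Reads per gene were measured by RNA sequencing in 8 libraries of mouse VTA, 4 CTR and 4 SS, grouped by their labels. The authors used Cutadapt to trim single-end reads of 75 bases, STAR to align them to mm10 and htseq-count to count them on an Ensembl annotation and deposited raw counts. Counts were analysed in R 4.3.3 with edgeR 4.0.16: filterByExpr (minimum count 10, minimum total 15), TMM, and glmQLFit with glmQLFTest at their defaults. Group was the only term, and p-values were adjusted by Benjamini-Hochberg at a threshold of 0.05. An SE is the size of the log2 fold change over the root of F. The biological coefficient of variation was 0.384, and a count of 0 was read as up to 3 counts. The exact two-sided permutation test used log2 CPM (prior count 2). Litters, not single mice, were assigned to CTR or SS, and no source says which of these mice shared a litter. The tests treat mice as independent, so p-values measure the spread between these mice and not between litters. DESeq2 1.42.0, limma 3.58.1 and the settings of the closing section were alternatives, of which library totals without TMM was chosen after seeing the data.

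Members and lists were chosen with earlier results of these data known. Named were members with an unadjusted p under 0.05 or without overlap, in each group the most abundant member and those with the highest and lowest log2 fold change, a set of well-known members, pathway genes with an unadjusted p under 0.05 with Herpud1, Hsf1, Bag3 and Trib3, and the most abundant gene of each marker list, of which 1 is not reported here. Others were named after their values were seen. Gene positions and lengths are from GENCODE on GRCm38, and promoters from RefSeq (GRCm38.p6), which matched 67 of 81 members.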

Additional observations from a re-analysis of the deposited data

Results flagged for a closer look

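Within the 106 groups of 4 libraries formed by the named genes, 3 held 1 library far from the other 3 by Dixon's criterion (the gap to the nearest library over the range), where chance gives about 5.3. Calr was lowest in SS-5, at 458 CPM compared with 498 CPM in the next library (0.873). Eif2ak3 was lowest in CTR-1, at 14.8 CPM compared with 32.9 CPM (0.846). Trib3 was highest in SS-4, at 0.791 CPM compared with 0.077 CPM (0.903).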

How the results depend on the processing

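The count of members with an adjusted p under 0.05, and that of the other pathway genes, was 0 under every setting that was run. The number of members with an unadjusted p under 0.05 (8) was 5 with limma voom, 4 on library totals without TMM, 3 with CTR-1 and CTR-2 left out together, 1 with the replicate number as a block, and 3 to 14 without 1 library. In the first 4 of these settings the share of members (6.76%, 5.41%, 3.95% and 1.35%) was under that of all genes (7.56%, 6.81%, 6.34% and 4.60%), where it was 10.8% compared with 6.55% in the fit reported. The number without overlap (5) was 3 with upper-quartile normalization, where Hspa8 and Hsp90ab1 came to overlap. It was 16 over the 6 libraries with Y-linked transcripts and 5 to 14 without 1 library, where fewer libraries make overlap less likely. The member median was -0.010 on library totals, where the TMM factors differ between the groups, and -0.08 to -0.03 without 1 library. Apart from these constructions, the cause was not tested.

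The correlations of deviations between CTR and SS libraries with the same replicate number were -0.0062, -0.0077 and 0.060, the last for CTR-5 and SS-5. Those between libraries with unlike numbers ran from -0.094 to 0.045. Whether the numbers mark a pairing or a shared batch was not tested. With the replicate block, Xbp1 alone had an unadjusted p under 0.05 (0.0498).

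Of the 53 named genes, 14 changed sign under some setting, none of them called in any setting. With CTR-1 and CTR-2 left out together, Canx was at -0.011, Dnajc18 at -0.028, Dnajc5 at -0.017, Dnajc6 at -0.046, Eif2ak3 at -0.12, Hspa5 at 0.034, Hspa9 at 0.027 and Hspb8 at 0.028. Over the 6 libraries with Y-linked transcripts, Atf6 was at 0.061, Dnajb1 at -0.053 and Dnajb9 at 0.11. With the replicate block, Dnajb1 was at -0.017, Dnajc6 at -0.026, Eif2ak3 at -0.10 and Hspa1a at -0.0091. Dnajb9 was at 0.049 on library totals and at 0.0016 with no filter on low counts. Without 1 library, the ranges were -0.18 to 0.045 for Atf6, -0.022 to 0.23 for Dnajb1, -0.075 to 0.087 for Dnajb9, -0.017 to 0.15 for Dnajc6, -0.16 to 0.17 for Eif2ak3, -0.20 to 0.075 for Hspa13, -0.014 to 0.22 for Hspa1a, -0.21 to 0.15 for Hspb8 and -0.17 to 0.024 for Pdia4.

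Depth limits the low members: Hspa1b and Hspa1l had no count in some libraries, and their intervals span more than a change of sign.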
